A study of Mus musculus with 6 samples.

Results

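Integrins are the receptors that tie cells to the matrix around them and, on leukocytes, to other cells. Described here are 42 genes listed by their function: 26 integrin subunits and 16 genes of the focal adhesion, the protein plaque that links integrins to the actin cytoskeleton. They were found by gene symbol among the 47643 genes of the count table, and all 42 were present. The integrins were taken apart into 18 matrix-binding and 8 leukocyte subunits. The rule that lists them uses no measured value, but the genes were chosen with earlier results of these data known.

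Each integrin is a pair of 1 alpha and 1 beta subunit, and the alpha subunit largely sets the ligand. Most matrix receptors share the beta subunit Itgb1, while Itgb2 and Itgb7 pair with leukocyte alpha subunits. Inside the cell, talins and kindlins bind the beta tail and switch the receptor to its active state. Vinculin, alpha-actinin, zyxin and tensin then couple it to actin, and focal adhesion kinase, paxillin and p130Cas carry the signal on. In the arterial wall these contacts hold smooth muscle cells to elastic fibres, collagen and basement membrane.

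RNA was sequenced from the whole aorta of Apoe-/- mice, which lack apolipoprotein E and develop atherosclerosis. The EPO group (3 libraries) received recombinant human erythropoietin, the hormone of red cell production, intraperitoneally at 5000 IU per kg each day for 4 weeks. The Vehicle group (3 libraries) received intraperitoneal saline over the same 4 weeks, and both groups carry the Apoe deletion. Age, sex and whether each library is 1 animal are not given by the labels, so each p-value reflects variation among the 6 libraries, which may be technical.

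EPO libraries held 28798632 to 38502430 counts and Vehicle libraries 23278649 to 27904322. Levels are given in CPM, the counts of a gene scaled to a common library size after TMM normalization. Calls rest on the quasi-likelihood test of edgeR with a Benjamini-Hochberg adjusted p below 0.05. Smooth muscle markers were present in every library but lower with EPO (12 of 14 called lower, 0 higher; summed 8950 to 11400 CPM in EPO and 24100 to 34100 CPM in Vehicle). Skeletal muscle markers stood apart by library, with 1190, 3180 and 376 CPM in EPO 1, 2 and 3 and 8.55 to 17 CPM in Vehicle, with 10 of 11 tested called higher and Tnnc2 too low to be tested. Of 10 adipocyte markers 6 were lower and 0 higher (summed 1990 to 2470 CPM in EPO and 2890 to 7860 CPM in Vehicle), and all 10 cell cycle genes were higher (296 to 360 CPM in EPO and 84 to 128 CPM in Vehicle). Over all genes tested 12.9% were called higher and 10.1% lower. In whole tissue, fewer cells of a type and less RNA per cell cannot be told apart.

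Integrin and focal adhesion genes moved in both directions with EPO. Of the 42 genes 40 passed the filter on low counts, and of these 11 were higher, 8 lower and 21 not called. That is 47.5% called, against 23% of all 16522 genes tested. The share higher was 27.5%, against 12.9% of all genes, and the share lower was 20.0%, against 10.1%. The median log2 fold change was 0.11 over the 40 genes, and 0.01 over all genes. The libraries of the groups did not overlap for 28 of the 40 genes (70.0%, against 43.8% of all genes). By class, matrix-binding integrins gave 3 higher and 4 lower of 17, leukocyte integrins 4 higher and 0 lower of 7, and focal adhesion genes 4 higher and 4 lower of 16.

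**Figure D1:**
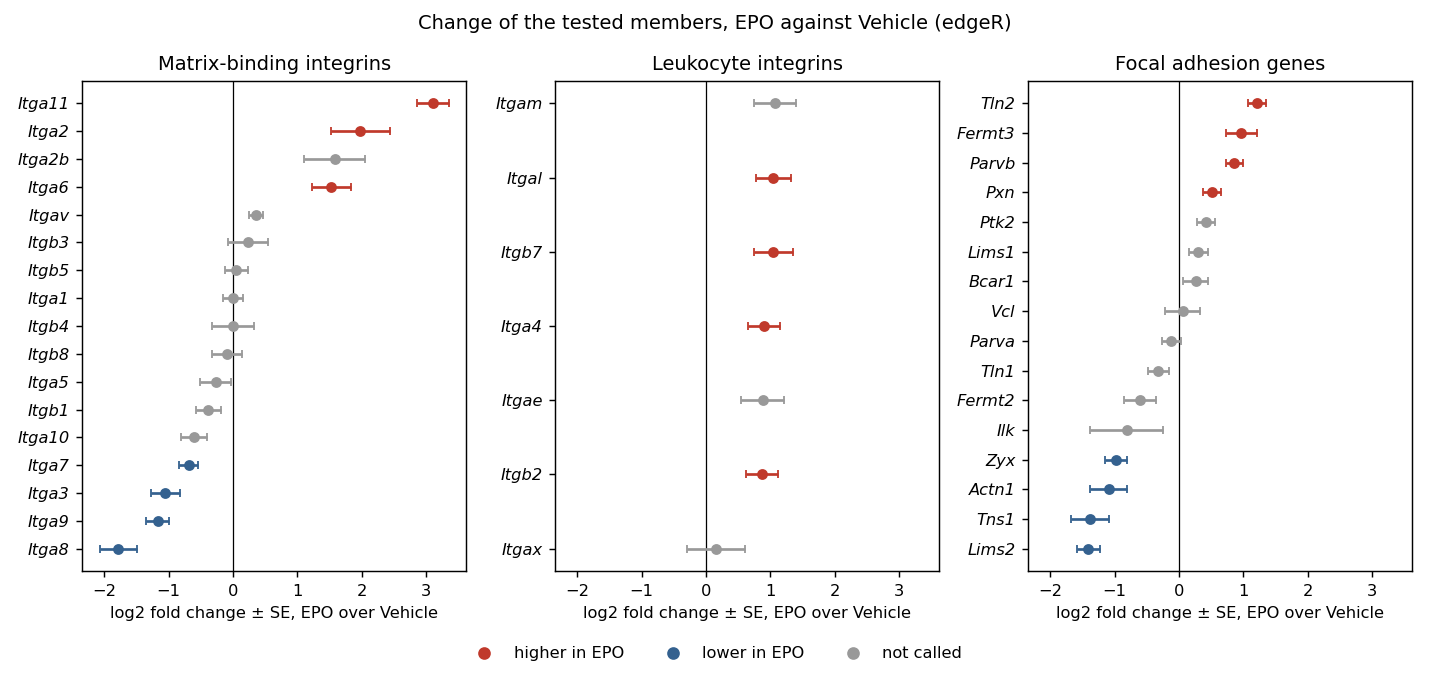
Log2 fold change of EPO over Vehicle for the 40 tested genes in 3 classes, with bars of 1 standard error; colours mark genes called higher or lower at an adjusted p under 0.05. Itga11 stands farthest to the right at 3.11 and Itga8 farthest to the left at -1.78. The 7 leukocyte integrins lie right of 0, Itgax by less than its SE.

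Itga11, a receptor for fibrillar collagen best known from fibroblasts, had the largest change of the 42 genes (ENSMUSG00000032243, GRCm38 chromosome 9, 62677826 to 62783982). Its level was 152, 190 and 109 CPM in EPO 1, 2 and 3, against 14.6, 21.7 and 15.9 CPM in Vehicle 1, 2 and 3. Every EPO library lay far above every Vehicle library (log2 fold change 3.11, SE 0.25, adjusted p = 0.00108), and the call held with any 1 library left out. Of 10 fibroblast markers 4 were higher and 0 lower, where 12.9% of all genes were higher and 10.1% lower. Their summed level was 7440 to 8130 CPM in EPO and 5590 to 5810 CPM in Vehicle. The part of these markers in the values of Itga11 was not tested. Itga2, another collagen receptor, which platelets and epithelia carry, was at 6.05, 3.50 and 1.8 CPM in EPO libraries and at 0.826, 1.05 and 1.0 CPM in Vehicle libraries. It rose 3.93-fold from a low level (adjusted p = 0.0217), but lost its call without Vehicle 1, Vehicle 2 or Vehicle 3 (adjusted p up to 0.0866). The other collagen receptors did not rise with them. Itga1, the collagen receptor usual on smooth muscle, was at 40.3 ± 7.48 CPM in EPO and 40.3 ± 1.06 CPM in Vehicle (SD, n = 3 each; log2 fold change 0.00, SE 0.15). Itga10, known from cartilage, was at 17.2 ± 1.44 CPM in EPO and 26.1 ± 6.67 CPM in Vehicle and was not called (adjusted p = 0.0692). It shares 33.5% of its exon bases with an overlapping gene model on the same strand, which has at most 4 counts in a library.

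Among laminin receptors, Itga6 rose while Itga3 and Itga7 fell. Itga6, which endothelial and epithelial cells use, stood at 121, 73.0 and 61.1 CPM in EPO 1, 2 and 3 and at 22.6, 39.1 and 26.4 CPM in Vehicle 1, 2 and 3. The groups did not overlap, and EPO 1 was highest (log2 fold change 1.53, SE 0.30, adjusted p = 0.0122). Itga7, the laminin receptor of muscle, stood at 123, 118 and 110 CPM in EPO libraries, against 221, 161 and 186 CPM in Vehicle libraries, a 1.62-fold fall (adjusted p = 0.0164). Skeletal muscle markers differed between those EPO libraries, from 376 to 3180 CPM, and their part in the values of Itga7 was not tested. Itga3 fell 2.08-fold, to 107 ± 23.4 CPM in EPO, against 222 ± 52.3 CPM in Vehicle (SD, n = 3 each; adjusted p = 0.0168). Without Vehicle 1 all 3 laminin receptors missed the threshold (adjusted p = 0.0553, 0.0652 and 0.0575 for Itga6, Itga3 and Itga7), as did Itga3 without EPO 2 and Itga7 without EPO 3 (adjusted p = 0.0532 each).

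The alpha subunits that read the RGD motif, a short peptide in fibronectin and related proteins, did not move as 1 group. Itga8, a receptor of smooth muscle for nephronectin and fibronectin (ENSMUSG00000026768, chromosome 2, 12106632 to 12301922), had the largest fall. It stood at 310, 502 and 681 CPM in EPO 1, 2 and 3, against 1840, 1650 and 1630 CPM in Vehicle 1, 2 and 3. The highest EPO library was still far below the lowest Vehicle library (log2 fold change -1.78, SE 0.29, adjusted p = 0.00616). EPO 1 was lowest and EPO 3 highest of the EPO group, as for Acta2, smooth muscle actin, which was at 2720, 3450 and 3990 CPM in EPO 1, 2 and 3, against 12700, 8660 and 9910 CPM in Vehicle libraries. The summed smooth muscle list had the same order, with 8950, 9540 and 11400 CPM in EPO 1, 2 and 3, but its members differed. Tagln was at 2730, 1640 and 2150 CPM and Myl9 at 1190, 750 and 1090 CPM in EPO 1, 2 and 3, with EPO 1 highest. The part of smooth muscle content in this fall was not tested. An antisense gene, E030013I19Rik, shares 5.05% of the exon bases of Itga8. It had 803 to 2159 counts in EPO and 4221 to 5082 in Vehicle, against 11113 to 22643 and 42293 to 47144 for Itga8. No source used here gives the strand setting of the counting, so reads in the shared stretch cannot be told apart.

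Itga5, the main fibronectin receptor, was at 257, 447 and 470 CPM in EPO libraries and at 469, 417 and 534 CPM in Vehicle libraries, and the groups overlapped (adjusted p = 0.453). Itgav, which pairs with several beta subunits to bind vitronectin and latent TGF-beta, was at 148, 152 and 134 CPM in EPO and at 115, 113 and 111 CPM in Vehicle. Its groups did not overlap, yet it narrowly missed the threshold (log2 fold change 0.36, SE 0.11, adjusted p = 0.0568; in DESeq2 0.0115). Itga2b, the fibrinogen receptor subunit of platelets and megakaryocytes, was at 13.5, 9.06 and 36.1 CPM in EPO 1, 2 and 3 and at 6.17, 5.95 and 7.52 CPM in Vehicle libraries. It was not called in edgeR (log2 fold change 1.58, SE 0.48, adjusted p = 0.0522), whereas DESeq2 gave an adjusted p of 0.0043. Of 8 tested platelet genes 2 were higher, 0 lower and 6 not called, where 12.9% of all genes were higher and 10.1% lower. Pf4, platelet factor 4, was at 84.3, 107 and 134 CPM in EPO and at 24.0, 29.7 and 28.2 CPM in Vehicle. Gp1ba, a platelet receptor subunit, was at 1.06, 1.22 and 2.19 CPM in EPO and at 2.74, 2.29 and 2.24 CPM in Vehicle, with every EPO library below, and was not called (adjusted p = 0.186). The summed level of the list was 116, 129 and 222 CPM in EPO 1, 2 and 3, against 36.8 to 43.2 CPM in Vehicle, with Gp6 too low to be tested, and their part in the values of Itga2b was not tested.

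Itga9, a receptor for tenascin C, osteopontin and VCAM1, fell 2.25-fold. It was at 193, 202 and 247 CPM in EPO libraries and at 561, 405 and 476 CPM in Vehicle libraries, with no overlap (adjusted p = 0.00504). This call held with any 1 library left out and was lost when both EPO 1 and EPO 2 were left out (adjusted p = 0.0679).

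Of the 5 matrix-binding beta subunits tested, 0 were called in edgeR, DESeq2 or limma-voom, and 0 had an unadjusted p under 0.05 in edgeR. Over all genes edgeR called 23%. Itgb1, the common partner, was at 924, 1300 and 1280 CPM in EPO and at 1590, 1400 and 1580 CPM in Vehicle; the groups did not overlap, yet the gene was not called (adjusted p = 0.188; log2 fold change -0.38, SE 0.19). Itgb5, a partner of Itgav, was at 706 ± 124 CPM in EPO and 684 ± 72.6 CPM in Vehicle (SD, n = 3 each). Itgb3, the other vitronectin receptor beta subunit and the partner of Itga2b, was at 126 ± 39.5 CPM in EPO and 107 ± 39.5 CPM in Vehicle. Itgb4, the hemidesmosome subunit, and Itgb8, which takes part in TGF-beta activation, had log2 fold changes of 0.00 and -0.09, each less than its SE of 0.33 and 0.23. Itgb6, an epithelial subunit that was filtered out as too low, had 30, 76 and 4 counts in EPO 1, 2 and 3 and 1 count in Vehicle 1 with none in the other Vehicle libraries.

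Scaled for exon length, the make-up of the matrix-binding alpha subunits differed between groups. The summed level of all 12 was 215, 285 and 309 CPM per kb in EPO 1, 2 and 3, against 518, 436 and 480 CPM per kb in Vehicle libraries. Itga8 took 24.4% ± 5.19 of that sum in EPO and 48.5% ± 2.67 in Vehicle (SD, n = 3 each), where it ranked above all others. Itga5 took 29.0% ± 4.09 in EPO and 20.1% ± 2.19 in Vehicle. In EPO it had the highest mean share, with 24.3%, 31.8% and 30.8% in EPO 1, 2 and 3, against 19.6%, 23.9% and 29.9% for Itga8. Their ranges met, but Itga5 was above Itga8 within each EPO library. Itga11 took 11.2% ± 3.75 in EPO, the third place, and 0.722% ± 0.22 in Vehicle, the eighth place. These shares depend on each other, since they add up to the whole. For the beta subunits the order Itgb1, Itgb5, Itgb3, Itgb4, Itgb8 was the same in both groups by mean CPM per kb, although Itgb5 exceeded Itgb1 in EPO 1 (239 and 226 CPM per kb).

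**Figure D2:**
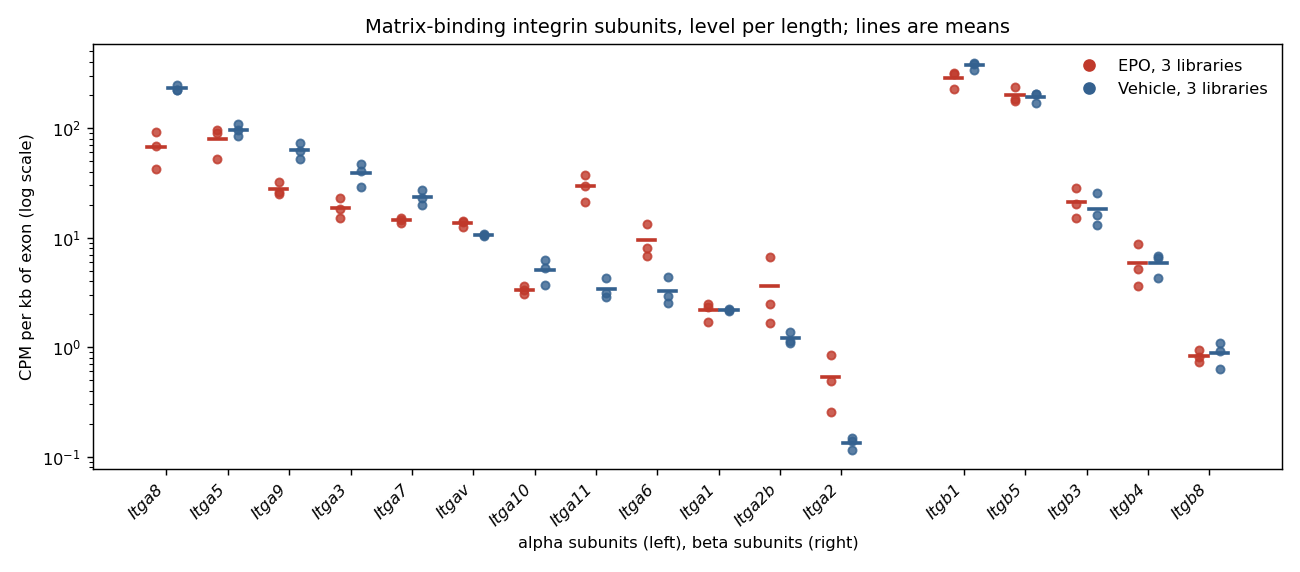
Level per length of the matrix-binding alpha and beta subunits in CPM per kb of exon on a log axis, 3 EPO libraries left of 3 Vehicle libraries for each gene, with lines at the means. Itga8 averages 67.5 CPM per kb in EPO and 231 in Vehicle, Itga11 averages 29.3 in EPO and 3.39 in Vehicle, and the beta subunits keep their order by mean.

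The promoters of Itga11 and Itga8 are shown because these integrins changed most in each direction. The sequences are from RefSeq (GRCm38.p6), run from 250 bases before to 50 after the start of transcription on the strand of the gene, and lie at chr9:62677605-62677904 for Itga11 (plus strand) and chr2:12301895-12302194 for Itga8 (minus strand). Capitals mark matches to GGAAGT, the core letters of many ETS factor sites, or its reverse complement.
Itga11: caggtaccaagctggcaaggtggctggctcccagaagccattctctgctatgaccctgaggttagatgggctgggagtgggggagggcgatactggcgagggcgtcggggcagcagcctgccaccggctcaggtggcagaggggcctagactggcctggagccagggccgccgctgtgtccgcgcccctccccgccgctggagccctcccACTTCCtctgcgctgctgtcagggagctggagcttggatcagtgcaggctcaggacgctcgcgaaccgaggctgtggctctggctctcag
Itga8: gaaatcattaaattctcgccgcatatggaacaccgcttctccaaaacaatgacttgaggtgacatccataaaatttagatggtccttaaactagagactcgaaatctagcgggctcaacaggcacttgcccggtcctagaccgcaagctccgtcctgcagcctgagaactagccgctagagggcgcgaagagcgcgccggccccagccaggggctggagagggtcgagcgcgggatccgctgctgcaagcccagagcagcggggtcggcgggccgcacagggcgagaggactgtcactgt
Itga11 has 1 match, 40 bases before its start, and Itga8 has none. The letters GGAAGT occur on either strand in 23.8% of all promoters of this length, so a match is a description and not a site.

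Apart from Itgax, the tested leukocyte integrins pointed in 1 direction. The median log2 fold change of the 7 was 0.90, and that of Itgax, 0.15, was less than its SE of 0.45. Of the 7, 6 (85.7%) had every EPO library above every Vehicle library, against 22.9% of all genes. The shared beta subunit Itgb2 was at 267, 152 and 172 CPM in EPO 1, 2 and 3 and at 83.8, 107 and 131 CPM in Vehicle 1, 2 and 3, a 1.83-fold rise (adjusted p = 0.0443). EPO 1 was the highest and Vehicle 1 the lowest. Itgal, which with Itgb2 forms the lymphocyte receptor LFA-1, was at 18.5, 17.9 and 31.1 CPM in EPO and at 8.47, 10.8 and 13.4 CPM in Vehicle, 2.07-fold higher (adjusted p = 0.0291). Here EPO 3 was the highest. Itgam, the Mac-1 subunit of monocytes and neutrophils, showed the same order, with 35.9, 32.3 and 51.1 CPM in EPO and 10.2, 23.0 and 23.7 CPM in Vehicle. It was not called (log2 fold change 1.07, SE 0.33, adjusted p = 0.0544; in DESeq2 0.0119). Its gene model shares 68.7% of its exon bases with another model on the same strand, which holds at most 5 counts in a library, so its counts are uncertain.

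Itgax, a subunit of dendritic cells and some macrophages, did not follow the others. It was at 124, 37.3 and 50.1 CPM in EPO 1, 2 and 3 and at 42.5, 69.1 and 78.8 CPM in Vehicle libraries. EPO 1 was the highest of the 6 and EPO 2 the lowest, and the groups overlapped (log2 fold change 0.15, SE 0.45, adjusted p = 0.835). Its log2 fold change was -0.55 without EPO 1, -0.34 without both EPO 1 and EPO 2 and -0.10 without Vehicle 1, and it was called in none of these. Itgad, the remaining partner of Itgb2, had 3 to 18 counts per EPO library and 5 to 18 per Vehicle library and was filtered out.

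Itgb7, Itga4 and Itgae serve the homing and retention of lymphocytes. Itgb7 was at 19.2, 11.8 and 23.6 CPM in EPO and at 6.39, 9.10 and 10.8 CPM in Vehicle, 2.07-fold higher (adjusted p = 0.0401). Itga4, which binds VCAM1 and fibronectin, was at 28.3, 16.9 and 15.1 CPM in EPO and at 10.2, 11.6 and 10.6 CPM in Vehicle, 1.86-fold higher (adjusted p = 0.0376). Itgae, which binds E-cadherin on epithelium, was at 2.30 ± 0.426 CPM in EPO and 1.25 ± 0.423 CPM in Vehicle (SD, n = 3 each) and was not called (adjusted p = 0.104).

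Each of these 4 calls was lost with at least 1 library left out. Such fits hold fewer libraries, so dependence on 1 library and the smaller number of libraries cannot be told apart. Without Vehicle 1 or without Vehicle 2 edgeR called 0 leukocyte integrins, with 5 and 6 at an unadjusted p under 0.05. Without Vehicle 3 or EPO 3 it called 1, without EPO 1 it called 2, and limma-voom called 2 where DESeq2 called 5. The log2 fold changes of Itgal, Itga4, Itgb2 and Itgb7 stayed positive under all 16 alternatives, between 0.49 and 1.52.

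Marker lists of blood-derived cells differed in direction and in how many of their genes were called. Of 8 pan-leukocyte genes 7 were higher and 0 lower, with a summed level of 1260, 753 and 902 CPM in EPO 1, 2 and 3, against 357, 523 and 599 CPM in Vehicle 1, 2 and 3. Ptprc, which encodes CD45, was at 142, 103 and 108 CPM in EPO and at 31.7, 46.7 and 48.1 CPM in Vehicle (adjusted p = 0.00383). Of 15 macrophage genes 2 were higher and 1 lower (summed 4440 to 10200 CPM in EPO and 2160 to 4210 CPM in Vehicle). Of 8 tested neutrophil genes 2 were higher and 0 lower (60.7, 113 and 594 CPM in EPO 1, 2 and 3, and 23.1 to 70.2 CPM in Vehicle), with Ly6g filtered out. Of 10 T cell genes 1 was higher (39.6 to 60.4 CPM in EPO and 26.1 to 52.2 CPM in Vehicle), and of 7 B cell and 7 dendritic cell genes edgeR called 0, with 0 and 1 at an unadjusted p under 0.05 (summed 21.8 to 49.1 and 31.0 to 38.5 CPM in EPO, 24.2 to 30.4 and 26.8 to 33.6 CPM in Vehicle). Of 6 tested mast cell genes 0 were higher and 4 lower (23.5 to 40.8 CPM in EPO and 53.6 to 65.3 CPM in Vehicle), with Ms4a2 filtered out. Over all genes 12.9% were called higher and 10.1% lower. EPO 1, highest for Itgb2, Itgax, Itga4 and Itgae, was highest in the pan-leukocyte, macrophage, B cell and dendritic cell sums. EPO 3, highest for Itgal, Itgam and Itgb7, was highest of the EPO group in the neutrophil, T cell and platelet sums. Several lists thus shared each highest library. The part of these cells in the integrin values was not tested.

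**Figure D3:**
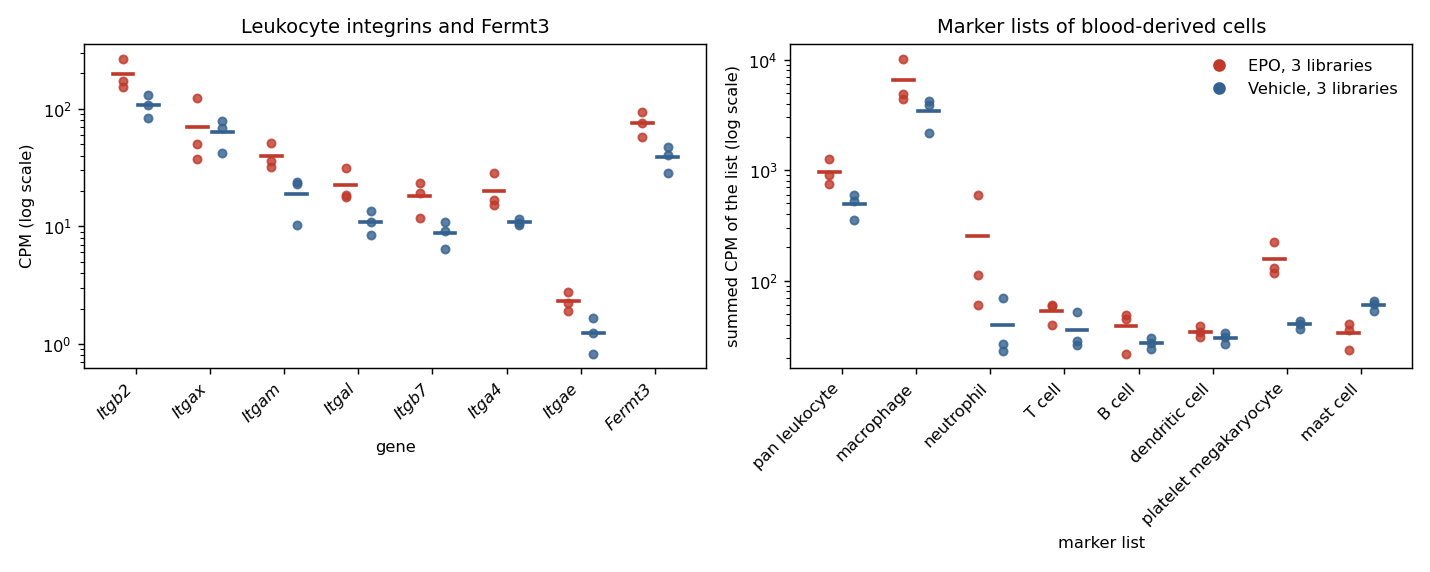
Left, CPM of 7 leukocyte integrins and the kindlin Fermt3 on a log axis; right, summed CPM of marker lists of blood-derived cells on a log axis; points are libraries, EPO left of Vehicle, and lines are means. All genes at left except Itgax have their 3 EPO libraries above their 3 Vehicle libraries, and the pan-leukocyte sums at right run from 753 to 1260 CPM in EPO and from 357 to 599 CPM in Vehicle.

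Of the leukocyte integrins, 4 were set against Ptprc within the same library. The ratio of Itgb2 to Ptprc, in CPM per kb, was 11.3, 8.80 and 9.54 in EPO libraries and 15.8, 13.8 and 16.3 in Vehicle libraries, and that of Itgax to Ptprc was 3.34, 1.38 and 1.77 in EPO and 5.10, 5.64 and 6.24 in Vehicle. Both ratios were lower in every EPO library (p = 0.1 in an exact, two-sided permutation test, its floor for groups of 3; 0.13 adjusted over 13 ratios). For Itgam and Itgal the ratio to Ptprc overlapped between groups, with differences in log2 of -0.36 and -0.47 (exact permutation p = 0.2 and 0.4). Without EPO 1 and EPO 2 these last differences were 0.14 and 0.15. Ptprc itself was 1.48 higher on the log2 scale in EPO.

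Among the activators of integrins, Tln2 and Fermt3 were called higher, while Tln1 and Fermt2 were not called. Tln2, the talin of muscle and brain, was at 44.5, 49.4 and 43.4 CPM in EPO and at 18.7, 17.7 and 23.0 CPM in Vehicle, 2.31-fold higher (adjusted p = 0.00276). Tln1, the talin of most cells, was at 566, 516 and 565 CPM in EPO and at 790, 587 and 673 CPM in Vehicle, without overlap but not called (log2 fold change -0.32, SE 0.16, adjusted p = 0.197). Fermt3, the kindlin of blood cells, rose 1.95-fold, with 93.2, 57.4 and 76.0 CPM in EPO and 28.2, 40.2 and 47.7 CPM in Vehicle (adjusted p = 0.0264). Fermt2, the kindlin of muscle and connective tissue, was at 108, 199 and 190 CPM in EPO and at 301, 227 and 234 CPM in Vehicle and was not called (log2 fold change -0.61, SE 0.25, adjusted p = 0.115). Fermt3 missed the threshold without Vehicle 1, Vehicle 2, EPO 1 or EPO 3 (adjusted p up to 0.088), whereas Tln2 was called under all 16 alternatives.

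In the complex of integrin-linked kinase, PINCH and parvin, Lims2 fell and Parvb rose. Lims2, a PINCH protein, was at 65.5, 60.1 and 86.8 CPM in EPO and at 217, 164 and 181 CPM in Vehicle, 2.65-fold lower (adjusted p = 0.00331). Its paralog Lims1 was at 99.5, 136 and 124 CPM in EPO and at 86.6, 106 and 99.1 CPM in Vehicle, with overlap (adjusted p = 0.197). Parvb, beta-parvin, was at 55.6, 61.0 and 57.6 CPM in EPO and at 28.5, 30.6 and 36.5 CPM in Vehicle, 1.82-fold higher (adjusted p = 0.00483), while alpha-parvin, Parva, was at 182 ± 25.1 CPM in EPO and 198 ± 16.6 CPM in Vehicle (SD, n = 3 each; adjusted p = 0.589). The part of skeletal muscle content in the values of Parvb and Tln2 was not tested. Ilk itself had 8 to 17 counts in EPO libraries and 7 to 25 in Vehicle libraries. As 76.7% of its exon bases are shared with Taf10 and 12.9% with Rrp8, both on the opposite strand, these counts cannot be read as its level.

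Ratios of paralogs were also taken within each library. The ratio of Lims1 to Lims2, in CPM per kb, was 0.951, 1.42 and 0.896 in EPO 1, 2 and 3 and 0.250, 0.404 and 0.343 in Vehicle 1, 2 and 3, 3.27-fold higher. That of Parvb to Parva was 0.831, 0.693 and 0.700 in EPO and 0.314, 0.394 and 0.408 in Vehicle. For Tln2 to Tln1 the ratio was 2.86-fold and for Fermt3 to Fermt2 3.08-fold higher in EPO. Among integrin pairs, Itga11 to Itga1 was 8.64-fold, Itga6 to Itga7 4.56-fold and Itga5 to Itga8 2.89-fold higher. Each of these 7 ratios had its 3 EPO libraries above its 3 Vehicle libraries (p = 0.1 in the exact permutation test, again its floor; 0.13 adjusted over 13 ratios), and each needs no scaling between libraries. The ratio of Itgb2 to Itgb1 was 2.38-fold higher in EPO, also without overlap (exact permutation p = 0.1). Itgb3 to Itgb5 overlapped between groups (exact permutation p = 0.7).

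**Figure D4:**
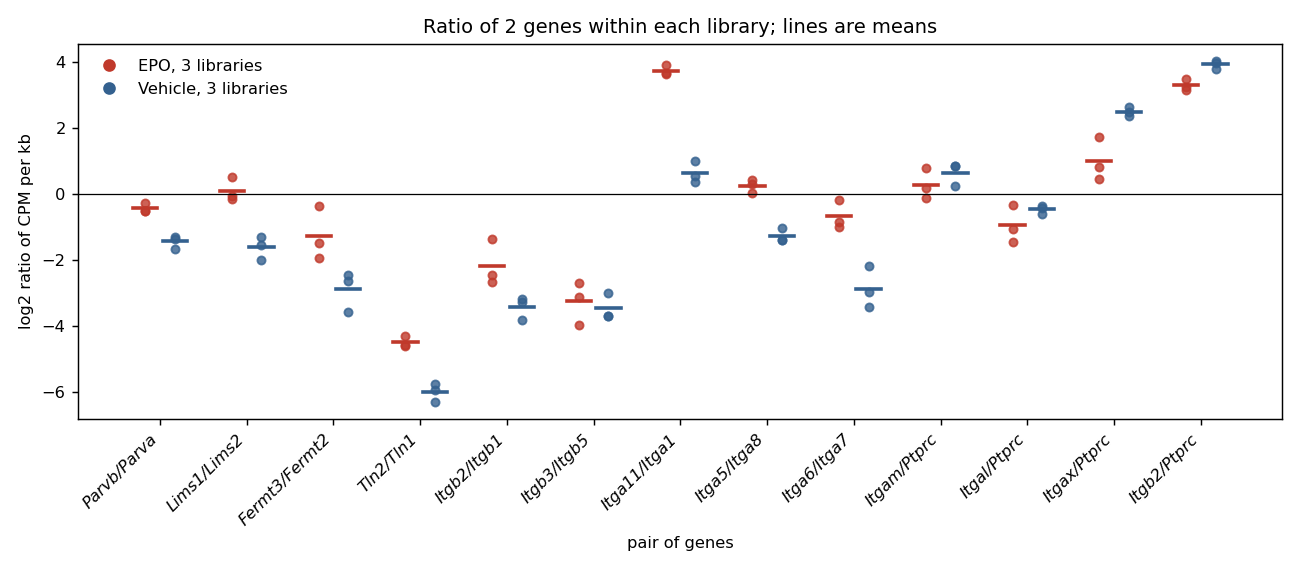
Log2 ratio of the CPM per kb of 2 genes within each library for 13 pairs, 3 EPO libraries left of 3 Vehicle libraries, with lines at the means. The points of EPO lie above those of Vehicle for the 4 paralog pairs at left and for Itgb2/Itgb1, Itga11/Itga1, Itga5/Itga8 and Itga6/Itga7. They lie below them for Itgax/Ptprc and Itgb2/Ptprc.

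Of the links to actin, 3 of 4 genes were called lower, where 10.1% of all genes were. Tns1, tensin, was at 701, 1130 and 1550 CPM in EPO 1, 2 and 3 and at 3380, 2550 and 2880 CPM in Vehicle libraries (log2 fold change -1.38, SE 0.30, adjusted p = 0.0174). Actn1, alpha-actinin, was at 484, 907 and 1030 CPM in EPO and at 1980, 1490 and 1690 CPM in Vehicle (log2 fold change -1.09, SE 0.29, adjusted p = 0.0345). In both, as in Itga8 and Acta2, EPO 1 was the lowest library and EPO 3 the highest of the EPO group. For the smooth muscle markers Tagln and Myl9, in contrast, EPO 1 was the highest of the EPO group. Zyx, zyxin, was at 301, 274 and 365 CPM in EPO and at 689, 532 and 630 CPM in Vehicle, 1.97-fold lower (adjusted p = 0.00859). Vcl, vinculin, was at 90.9, 120 and 53.7 CPM in EPO and at 98.0, 78.8 and 77.6 CPM in Vehicle, with overlap (log2 fold change 0.06, SE 0.27); it shares 25.5% of its exon bases with Ap3m1 on the opposite strand. Tns1 lost its call without EPO 2 or Vehicle 1 (adjusted p up to 0.0673) and Actn1 without EPO 2, Vehicle 1, Vehicle 2 or Vehicle 3 (up to 0.113). The smooth muscle list fell in the same libraries, and its part in these values was not tested.

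Of the 3 signalling genes 1 was called, where 23% of all genes were, so this count says little about the 3. Pxn, paxillin, was at 180, 131 and 162 CPM in EPO and at 112, 108 and 113 CPM in Vehicle, 1.42-fold higher (adjusted p = 0.042). It lost this call without EPO 1, EPO 3 or any single Vehicle library (adjusted p up to 0.147). Ptk2, focal adhesion kinase, was at 60.2, 59.0 and 45 CPM in EPO and at 40.3, 40.4 and 41.6 CPM in Vehicle, without overlap but not called (log2 fold change 0.42, SE 0.14, adjusted p = 0.0623). Bcar1, p130Cas, was at 73.1 ± 20.2 CPM in EPO and 60.9 ± 5.48 CPM in Vehicle (SD, n = 3 each; adjusted p = 0.377).

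**Figure D5:**
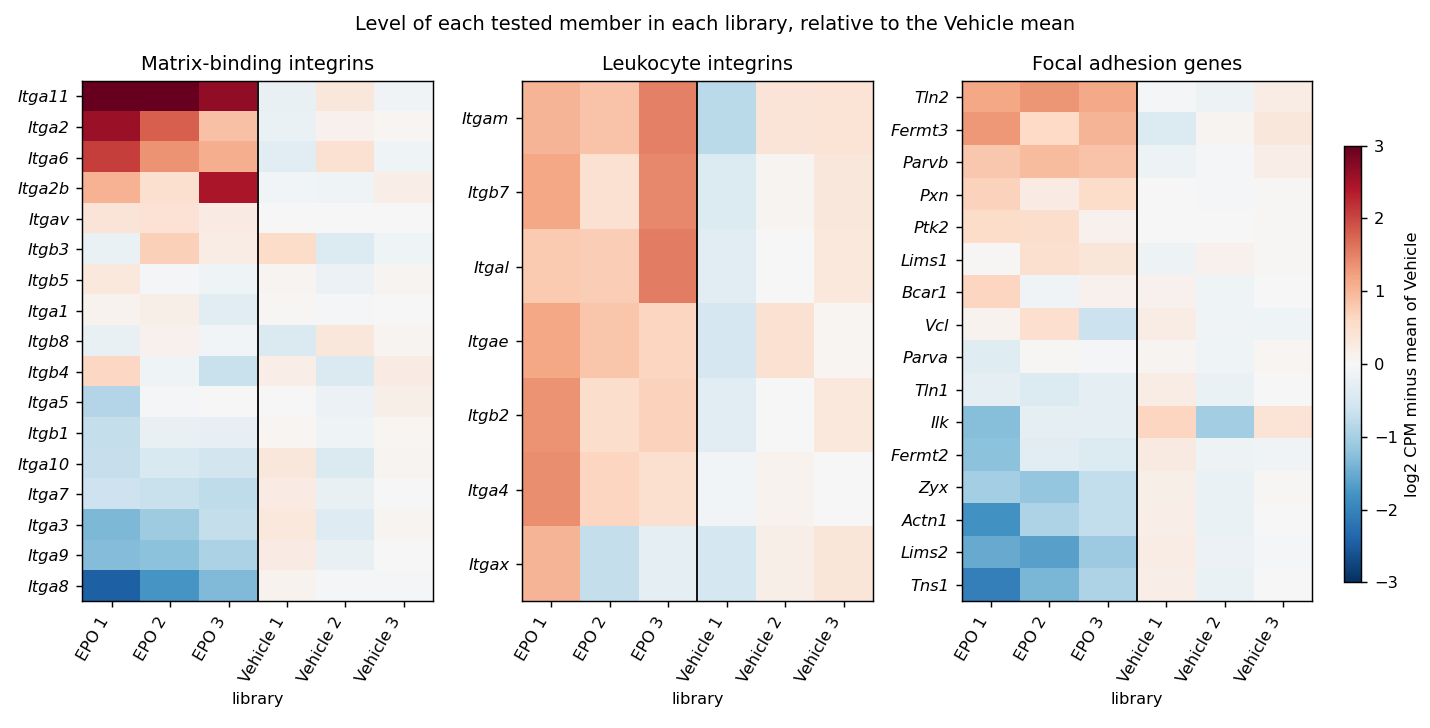
Log2 CPM of each tested gene in each library minus its mean over Vehicle, in 3 classes, with the EPO libraries left of the line and the Vehicle libraries right of it; red is higher and blue lower, and the colours end at 3 above and 3 below. The leukocyte class has medians of 1.16, 0.65 and 0.70 in EPO 1, 2 and 3, while the medians of the other classes stay between -0.20 and -0.03.

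Promoters with a CArG box, the binding sequence of serum response factor in many muscle and cytoskeletal genes, are shown for the 2 focal adhesion genes found with one. Vcl (chr14:20929148-20929447, plus strand) and Fermt2 (chr14:45530016-45530315, minus strand) are given as above from RefSeq, with the box in capitals.
Vcl: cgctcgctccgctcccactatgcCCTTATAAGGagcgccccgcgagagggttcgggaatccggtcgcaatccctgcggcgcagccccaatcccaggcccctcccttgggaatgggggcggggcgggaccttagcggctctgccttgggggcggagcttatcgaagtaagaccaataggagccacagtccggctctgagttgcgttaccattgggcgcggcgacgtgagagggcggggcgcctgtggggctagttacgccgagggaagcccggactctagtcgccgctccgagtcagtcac
Fermt2: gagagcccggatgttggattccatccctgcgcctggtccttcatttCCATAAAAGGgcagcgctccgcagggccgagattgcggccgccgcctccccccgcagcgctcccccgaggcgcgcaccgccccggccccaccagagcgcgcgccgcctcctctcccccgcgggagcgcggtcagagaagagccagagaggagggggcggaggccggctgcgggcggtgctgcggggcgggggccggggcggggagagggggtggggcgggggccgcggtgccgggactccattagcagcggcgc
The box begins 227 bases before the start in Vcl and 204 before it in Fermt2, and neither gene was called. Itgb6, too low to be tested, is the only other of the 29 genes with one. The box was searched on both strands, where its pattern, though not each box, is the same. It occurs in 1.63% of all promoters of this length and in 1.81% of all genes with a promoter. Among the called genes with a promoter in the table, 0 of 6 that fell and 0 of 6 that rose hold one, which says no more than that these letters are not in this window. Of the 42 genes 29 had a promoter in the table.

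Ligands of integrins were read from a separate list of 30 genes. Of 29 tested, 14 were higher and 3 lower, and the median log2 fold change was 0.68. Of all genes 12.9% were higher and 10.1% lower, so the number lower in the list was near the share of all genes. By smallest p those higher were Col1a1, a chain of the collagen that Itga11 binds (25700 ± 3370 CPM in EPO and 3440 ± 553 CPM in Vehicle), Fbn1, the RGD-bearing fibrillin (945 ± 119 CPM in EPO and 302 ± 34.7 CPM in Vehicle), and Lamb1, a laminin chain (216 ± 42.5 CPM in EPO and 49.4 ± 14.2 CPM in Vehicle; SD, n = 3 each; adjusted p = 0.00167, 0.00218 and 0.00262). Those lower were Npnt, nephronectin, the ligand of Itga8, at 263 ± 105 CPM in EPO and 802 ± 132 CPM in Vehicle (adjusted p = 0.0117), and the laminin chains Lamb2 (log2 fold change -0.86) and Lama2 (-0.60). Of the cell-surface ligands of leukocyte integrins in the list, Cdh1, the E-cadherin that Itgae binds, was higher at a low level, with 2.16 ± 0.168 CPM in EPO and 0.616 ± 0.364 CPM in Vehicle (SD, n = 3 each; adjusted p = 0.0327). Icam1, Icam2 and Vcam1 were not called, with log2 fold changes of -0.26, 0.00 and 0.12, and Madcam1 was too low to be tested.

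Of 44 further focal adhesion and actin-linking genes tested, 8 were higher and 12 lower, where 12.9% of all genes were higher and 10.1% lower. The median log2 fold change of the 44 was -0.02. The higher genes of smallest p were the kinase Fyn (0.80), the tensin Tns3 (1.17) and the actin-bundling palladin, Palld (0.97). The lower were Tns2 (-1.05), Csrp1, a LIM protein of smooth muscle (-1.43), and Lpp, a relative of zyxin (-1.11; log2 fold changes, adjusted p from 0.00375 to 0.00689). The tensins thus differed in direction, with Tns1 and Tns2 lower and Tns3 higher. Of 19 genes that regulate integrins, 2 were higher and 1 lower, no more than the 12.9% and 10.1% of all genes: Fyb (1.97) and Apbb1ip (1.13), adaptors of blood cells upstream of talin, and Cd151 (-0.65), a tetraspanin partner of laminin-binding integrins.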

How the data were processed

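RNA from the whole aorta was sequenced in 3 EPO and 3 Vehicle libraries. The deposited values are raw counts per Ensembl gene, not normalized by the authors. Per the submitters' processing notes, base calls came from CASAVA 1.8 and reads were aligned with TopHat2 2.0.6 to mm10; which tool counted, with which strand setting and gene models, is not given in the sources used here. Columns named Con were read as Vehicle. Symbols, coordinates and merged exon lengths came from GENCODE M21 (GRCm38); 47224 IDs matched and 419 did not.

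Counts were fitted for all genes in R 4.3.3 with edgeR 4.0.16 (filterByExpr, TMM, glmQLFit, glmQLFTest, two-sided, group as the single term), with Benjamini-Hochberg adjustment over the 16522 genes tested. SE is the log2 fold change over the root of F. CPM used the scaled totals of the tested genes, and log2 CPM by library and ratios of genes a prior count of 2 (0.5 as an alternative for the ratios). On simulated data of this size (16318 genes) 49 of 100 simulated 2-fold changes and 98 of 100 simulated 4-fold changes were called, and 8 of 155 calls were false. No other genes were changed there, whereas 23% of genes were called in the data. These numbers therefore do not give the share of real changes found here. Alternatives were other scalings and filters, DESeq2 1.42.0, limma-voom (limma 3.58.1), a replicate block, a minimum fold, gene removal and libraries left out. The genes, the lists and the tests were chosen with earlier results of these data known. All 42 genes are named; of the ligand, adhesion and regulator lists, the 3 of smallest p called in each direction; of marker lists, a few members and their sums. Genes outside this rule (Icam1, Icam2, Vcam1, Cdh1, Madcam1, Gp1ba, Ms4a2, Tnnc2, Ly6g, Gp6, Tagln, Myl9 and overlapping gene models) were named after their values were seen. At 23278649 to 38502430 counts per library, a gene at 0 counts could still be present at up to 3 counts, 0.0779 to 0.129 CPM, for counting error alone.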

Additional observations from a re-analysis of the deposited data

How the results depend on the processing

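Over 16 alternatives no called gene of the 42 changed direction. Of 19 called genes, 7 kept the call with each library left out (Itga11, Itga8, Itga9, Tln2, Lims2, Parvb and Zyx), and 4 of these (Itga11, Itga8, Tln2 and Lims2) in every alternative; 5 uncalled genes (Itga10, Itgav, Itga2b, Itgam and Ptk2) were called in at least 1. With single libraries left out, the genes called higher numbered 3 to 11 and lower 4 to 8 of the 42, matrix-binding integrins 1 to 4 higher and 2 to 5 lower, leukocyte integrins 0 to 3 higher and 0 lower, and focal adhesion genes 2 to 4 higher and 2 to 4 lower. Over all genes the counts ran from 936 to 2265 higher and from 699 to 2016 lower. Without Vehicle 1 each of these counts was at its lowest, alone or tied with another library. Without both EPO 1 and EPO 2, where the lone EPO library is assumed to vary like the Vehicle libraries, 6 of the 42 were higher and 2 lower: 1 matrix-binding integrin lower, 2 leukocyte integrins higher, 2 focal adhesion genes higher and 1 lower, and over all genes 1085 higher and 463 lower. Requiring a fold of at least 2 left 6 of the 42 higher, 2 leukocyte integrins higher and 1 focal adhesion gene higher, and over all genes 1329 higher and 919 lower. Matrix-binding integrins called higher numbered 5 with no filter on low counts and 5 in DESeq2, and leukocyte integrins called higher 2 in limma-voom. With the replicate number as a block, 6 of the 42 were higher, with 2 leukocyte integrins and 2 focal adhesion genes among them; the numbers do not pair the libraries, since same-numbered libraries deviated together with r = -0.009, -0.01 and 0.127. Apart from the counts over fewer libraries, the cause of these differences was not tested. Other scalings and removal of haemoglobin and mitochondrial genes kept each count within 1.5 times. In the thinnest library 3 counts equal 0.129 CPM, which limits Itgb6 and Itgad.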
